A study of Mus musculus with 4 samples.

Results

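Glutathione S-transferases of the alpha class (Gsta genes) and the mu class (Gstm genes) were followed in 4 mouse livers, 2 wild type and 2 from Cyp3a-/- animals, which lack the Cyp3a gene cluster, each on 1 Agilent 1-colour array. The Cyp3a genes code for P450 oxidases of drugs and steroids, and the comparison asks which liver transcripts differ without them. The labels give tissue and genotype and speak of independent experiments on different animals. Strain, sex, age, feeding state and the way the cluster was deleted are not given in the sources used here. Members were the non-control probes whose RefSeq accession belonged to 1 of 10 genes, namely Gsta1 to Gsta4, Gstm1 to Gstm4, Gstm6 and Gstm7. This gave 18 of the array's 39429 probes, 4 for the alpha class and 14 for the mu class, and covered 9 of the 10 genes. No probe carried the accession used for Gsta1, which is therefore not analysed here. All 18 probes were well above background on all 4 arrays, and none was saturated.

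Glutathione S-transferases of the alpha and mu classes are cytosolic enzymes. They join the tripeptide glutathione to reactive, electron-poor compounds, among them products of P450 oxidation, so that these can be exported and excreted. Alpha and mu enzymes are abundant proteins of hepatocytes. Their genes are known targets of NRF2, a factor that answers oxidative stress, and of CAR and PXR, the nuclear receptors that answer foreign compounds.

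The deleted genes served as a check of the labels. Cyp3a11, the main Cyp3a transcript of mouse liver, was well above background in both wild type livers and in neither Cyp3a-/- liver (0 of 2), at a level at least 7204-fold lower. The share of probes detected well above background was 54.4% to 56.4% per array. The wild type livers shared slide 1, while the Cyp3a-/- livers had slides 2 and 3 to themselves, so slide and genotype cannot be told apart. The labels do not tie a liver to an experiment, and p-values measure the spread between these 4 livers only.

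None of the GST genes passed the threshold between genotypes, but Gstm2 and Gstm3 had larger differences than the other members. With limma, 0 of 9 genes reached an adjusted p under 0.05, against 48 of 17403 genes or other features on the array (0.276%). At an unadjusted p under 0.05, 2 members were higher in Cyp3a-/- liver, beside 4.60% of all genes, and 0 were lower, beside 5.42%. All 9 fold changes lay above 0 (51.5% of all genes did), although that of Gstm6 was 0.01 and fell below 0 with quantile normalization. The median log2 fold change, Cyp3a-/- over wild type, was 0.54 for the 9 members and 0.01 for all genes. For 6 of the 9 members the Cyp3a-/- livers lay above both wild type livers with no overlap, as they did for 22.6% of all genes, and for 0 of the 9 they lay below (20.2% of all genes). Single probes were read from a fit over the 21505 probes kept. There 0 of 18 member probes passed (0.270% of all probes did) and 5 had an unadjusted p under 0.05 (9.90%). These 5 were the 3 probes of Gstm2 and the 2 of Gstm3, so they add no gene to the 2 members counted above. Of the 18, 15 had fold changes above 0 (50.7%) and 12 were higher in Cyp3a-/- liver without overlap (22.2%). All signals below are log2 values relative to the 75th percentile of the same array, and levels of different probes are not comparable with each other.

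**Figure D1:**
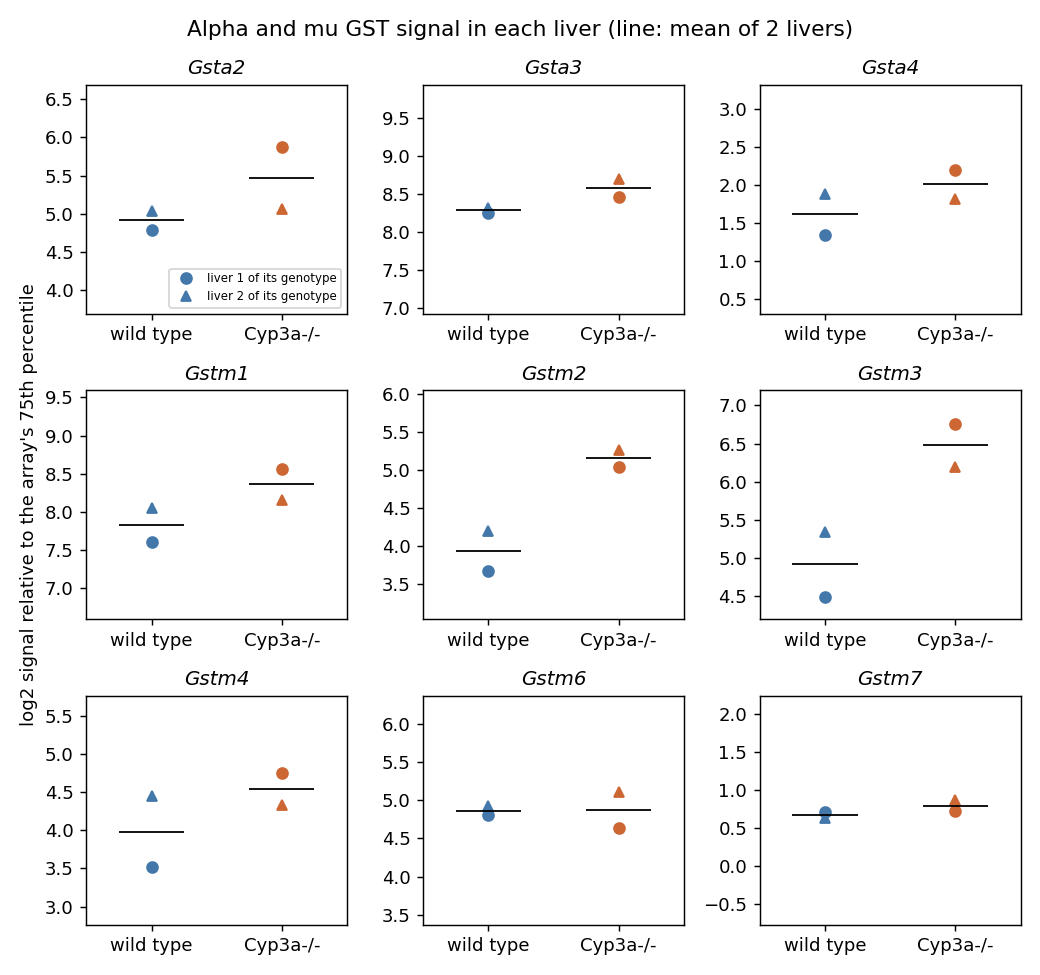
Signal of each GST gene in each liver, as log2 relative to the 75th percentile of the array (y axis), for wild type (blue) and Cyp3a-/- (orange), with circles for liver 1, triangles for liver 2 and a line at the mean of 2 livers. Every panel spans the same log2 range, and the genotypes are farthest apart for Gstm3 (1.56) and Gstm2 (1.22).

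The mu class enzyme gene Gstm2 gave the smallest p of the members. Its signal was 3.67 and 4.20 in the wild type livers and 5.04 and 5.26 in the Cyp3a-/- livers. Both Cyp3a-/- livers thus lay above both wild type livers, and the gap between genotypes exceeded the gap within either. The log2 fold change was 1.22 ± 0.24 (SE; 2.32-fold, 95% confidence interval 1.53 to 3.52), and limma's adjusted p was 0.234. The other Gstm2 probes gave nearly the same sizes. One read 3.11 and 3.75 in wild type and 4.31 and 4.76 in Cyp3a-/- liver (2.15-fold, adjusted p = 0.314 over all probes). The dimmest read 0.33 and 1.16 against 1.76 and 2.10 (2.28-fold, adjusted p = 0.318). All 3 probes placed the livers in the same order, from wild type 1 up to Cyp3a-/- 2. Leaving out 1 liver at a time moved the Gstm2 log2 fold change between 0.95, without wild type 1, and 1.48, without wild type 2.

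Gstm3, its close relative in the same gene cluster, had the largest difference. The probe that stood for the gene read 4.49 and 5.34 in the wild type livers and 6.76 and 6.19 in the Cyp3a-/- livers. Wild type 1 was the lowest liver and Cyp3a-/- 1 the highest, with no overlap of genotypes. The log2 fold change was 1.56 ± 0.35 (SE; 2.95-fold, 95% confidence interval 1.60 to 5.42; adjusted p = 0.267), and it ran from 1.14 without wild type 1 to 1.99 without wild type 2. Scaling to the median of all probes was the only setting tried at the gene level in which Gstm2 (adjusted p = 0.0048) and Gstm3 (adjusted p = 5.7e-05) passed. In that fit limma gave every gene the same variance and called 659 genes in all, and with the median taken over the probes kept by the filter, 49 genes and 0 members were called.

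The 2 probes of Gstm3 did not give the same size. The other probe read 3.49 and 4.54 in the wild type livers and 7.59 and 6.96 in the Cyp3a-/- livers, a log2 fold change of 3.26 ± 0.40 (SE; 9.58-fold, 95% confidence interval 4.84 to 19.0; adjusted p = 0.067 over all probes). In processed intensity this was 3508 and 8178 in wild type against 60279 and 38446 in Cyp3a-/- liver. The probes had nearly equal means over the 4 arrays, 5.70 and 5.64, and the brighter stood for the gene. Within each array the log2 ratio of the first probe to the second was 1.00 and 0.80 in wild type and -0.82 and -0.77 in Cyp3a-/- liver. This ratio thus varied less within a genotype than between genotypes, and its own level has no meaning across probes. The probes' changes differed by -1.70 ± 0.16 (log2, SE; 95% confidence interval -2.11 to -1.28; limma adjusted p = 0.167). Over all genes with more than 1 kept probe, 25 of 3956 such pairs (0.632%) differed by as much. None of the 3956 pairs, 9 of them from members, passed limma's threshold (0.00%), and 277 (7.0%) had an unadjusted p under 0.05, among them the Gstm3 pair and 1 Gstm4 pair. Whether the second Gstm3 probe also binds transcripts of a related gene was not tested, since probe sequences were not used here. As an average of its probes Gstm3 stood at 2.41 (adjusted p = 0.138).

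**Figure D2:**
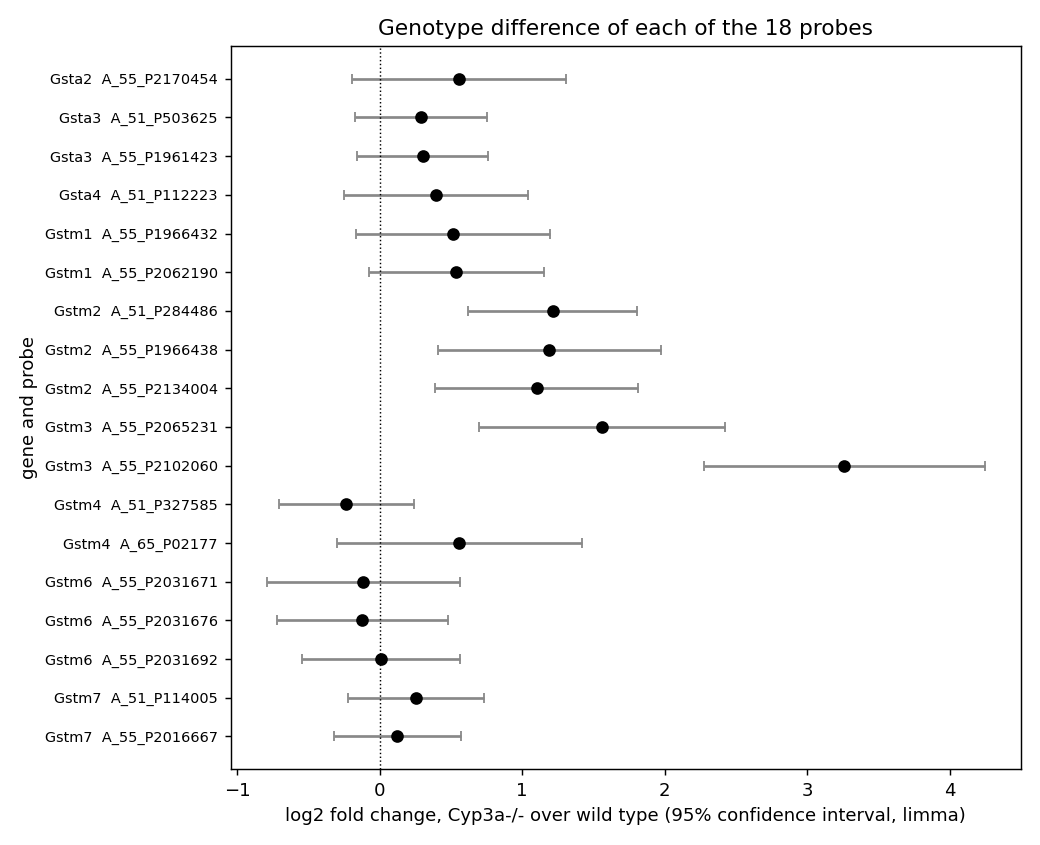
Log2 fold change of Cyp3a-/- over wild type (x axis) for each of the 18 GST probes (y axis), with limma's 95% confidence interval from the fit over all probes. The 3 Gstm2 probes lie together, the highest at 1.22, while the Gstm3 probes lie at 1.56 and 3.26 and the Gstm4 probes on opposite sides of 0.

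Sequences upstream of both genes are shown because these members differed most. The 250 bases before the start of Gstm2 (RefSeq, GRCm38.p6, chr3:107986421-107986670, minus strand) and of Gstm3 (chr3:107969175-107969424, minus strand) hold none of the letters searched, so nothing is in capitals.
Gstm2: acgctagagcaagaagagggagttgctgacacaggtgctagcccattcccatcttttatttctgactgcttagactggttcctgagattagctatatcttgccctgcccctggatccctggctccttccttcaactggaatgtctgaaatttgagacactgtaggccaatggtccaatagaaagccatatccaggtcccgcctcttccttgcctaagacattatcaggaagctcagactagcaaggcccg
Gstm3: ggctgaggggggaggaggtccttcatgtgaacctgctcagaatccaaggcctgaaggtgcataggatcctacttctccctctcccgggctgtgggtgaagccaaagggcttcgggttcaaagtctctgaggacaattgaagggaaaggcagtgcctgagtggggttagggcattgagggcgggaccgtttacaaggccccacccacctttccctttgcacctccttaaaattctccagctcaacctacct
The motifs searched on both strands were TGACNNNGC, the core of the element that NRF2 binds, and AGGTCA, a half-site of nuclear receptors such as CAR and PXR. TGACNNNGC stood in 10.2% of all 32851 upstream windows of this length in the table and in 2 of the 14 windows of the 9 listed genes matched, which include Gsta1. AGGTCA stood in 14.0% of all windows and in 0 of the 14. The windows cover only the bases next to each start, and a missing match says only that these letters are not there.

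Gstm1, a major mu enzyme of mouse liver, and Gstm4 had smaller differences that limma did not separate from the spread between livers. Gstm1 read 7.60 and 8.05 in wild type and 8.56 and 8.16 in Cyp3a-/- liver, with no overlap. Its log2 fold change was 0.54 ± 0.25 (SE; 95% confidence interval -0.08 to 1.16; adjusted p = 0.558), and the second probe, at 6.07 and 6.77 against 7.04 and 6.83, gave 0.52 ± 0.27. Without wild type 1 the Gstm1 value was 0.31, and without wild type 2 it was 0.76. Gstm4 read 3.52 and 4.45 in wild type and 4.76 and 4.33 in Cyp3a-/- liver, so wild type 2 overlapped with the Cyp3a-/- livers. That probe gave a log2 fold change of 0.56 ± 0.35 (SE; adjusted p = 0.639), while the dimmer Gstm4 probe gave -0.23 ± 0.19, from 2.22 and 2.50 in wild type to 2.12 and 2.12 in Cyp3a-/- liver. The brighter probe's value was 0.09 without wild type 1 and 1.02 without wild type 2. The Gstm4 probes thus pointed in opposite directions, and the dimmer one did not overlap between genotypes. Their changes differed by 0.79 (95% confidence interval 0.05 to 1.54; limma adjusted p = 0.682).

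Gstm6 and Gstm7, mu genes of the same cluster, showed nearly equal means in both genotypes. Gstm6 read 4.81 and 4.92 in wild type and 4.64 and 5.11 in Cyp3a-/- liver, where the wild type values lay between those of the Cyp3a-/- livers. Its log2 fold change of 0.01 ± 0.22 (SE) has a 95% confidence interval of -0.55 to 0.57, so changes of up to about that size remain possible. The other Gstm6 probes gave -0.11 ± 0.27 and -0.12 ± 0.24, and on all 3 probes Cyp3a-/- 1 was the lowest liver and Cyp3a-/- 2 the highest. Gstm7 read 0.71 and 0.64 in wild type and 0.72 and 0.87 in Cyp3a-/- liver. Its log2 fold change was 0.12 ± 0.18 (SE; 95% confidence interval -0.32 to 0.57), and its second probe, at -0.31 and -0.44 against -0.25 and 0.02, gave 0.26 ± 0.19. Neither probe overlapped between genotypes, although Cyp3a-/- 1 lay only just above wild type 1 on both.

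The mu genes lie side by side on mouse chromosome 3. In the RefSeq annotation their order is Gstm5, Gstm7, Gstm6, Gstm3, Gstm2, Gstm1 and Gstm4, with only predicted genes annotated between them. Gstm3 and Gstm2, the members with the largest differences, are thus next to each other apart from the predicted gene Gm12497. The flat Gstm6 and Gstm7 lie together on one side of them and Gstm1 and Gstm4 on the other. Gstm5, a mu gene outside the members, read 0.63 and 0.68 in wild type and 1.66 and 0.78 in Cyp3a-/- liver (log2 fold change 0.57 ± 0.32, SE; adjusted p = 0.606). Its difference rested mainly on Cyp3a-/- 1.

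**Figure D3:**
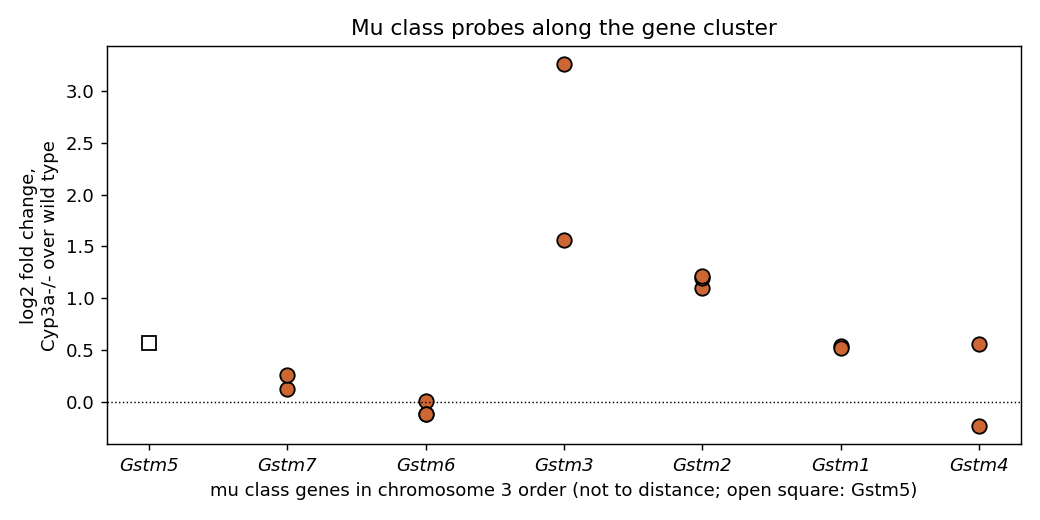
Log2 fold change of Cyp3a-/- over wild type (y axis) for every mu class probe, with genes in their chromosome 3 order on the x axis, not to distance; filled circles are member probes and the open square is Gstm5. The points peak at Gstm3 and Gstm2 and lie near 0 at Gstm6.

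The alpha class genes gave fold changes between 0.29 and 0.56 on the log2 scale, none of which passed. Gsta2 read 4.79 and 5.03 in wild type and 5.87 and 5.06 in Cyp3a-/- liver. Cyp3a-/- 1 stood apart from the other livers, and Cyp3a-/- 2 lay just above wild type 2. The log2 fold change was 0.56 ± 0.31 (SE; 1.47-fold; 95% confidence interval on the log2 scale -0.21 to 1.32; adjusted p = 0.604), and it was 0.15 without Cyp3a-/- 1 and 0.96 without Cyp3a-/- 2. Gsta3, the main constitutive alpha enzyme of mouse liver, known for detoxifying the epoxide of aflatoxin, read 8.25 and 8.31 in wild type and 8.46 and 8.69 in Cyp3a-/- liver. These values did not overlap, but the log2 fold change was small, 0.29 ± 0.19 (SE; 95% confidence interval -0.17 to 0.75; adjusted p = 0.643). The second Gsta3 probe, at 7.69 and 7.77 against 7.91 and 8.14, gave 0.30 ± 0.19. Gsta4, which conjugates hydroxynonenal, a product of lipid peroxidation, read 1.34 and 1.88 in wild type and 2.20 and 1.81 in Cyp3a-/- liver, with overlap (log2 fold change 0.40 ± 0.26, SE; adjusted p = 0.657). Its value was 0.12 without wild type 1, 0.67 without wild type 2 and 0.20 without Cyp3a-/- 1.

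Gsta1 and Gsta2 are close copies, and whether the Gsta2 probe also binds Gsta1 transcripts was not tested. Their upstream regions show this likeness. Below, the longest run that both share within 250 bases of their starts, 29 bases, is in capitals (RefSeq, GRCm38.p6; Gsta1 at chr9:78230511-78230619, plus strand; Gsta2 at chr9:78347198-78347306, minus strand).
Gsta1: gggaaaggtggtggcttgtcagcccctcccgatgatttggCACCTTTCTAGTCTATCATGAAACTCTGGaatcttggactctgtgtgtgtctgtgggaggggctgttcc
Gsta2: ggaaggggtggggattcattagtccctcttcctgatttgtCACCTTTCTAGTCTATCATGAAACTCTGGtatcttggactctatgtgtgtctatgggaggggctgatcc
The run stands in 3 of the 32851 windows, those of Gsta1, Gsta2 and the predicted gene Gm3776. Gsta3, on chromosome 1 and so away from the other alpha genes on chromosome 9, has 1 match to TGACNNNGC (in capitals) upstream of its start, at chr1:21240439-21240497, plus strand.
Gsta3: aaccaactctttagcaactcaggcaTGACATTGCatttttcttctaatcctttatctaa

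The members also differed between livers of one genotype. Wild type 1 was the lowest of the 4 livers for 7 of 9 members, as it was for 22.6% of all genes, and wild type 2 lay above wild type 1 for 8 of 9. The gap between the wild type livers reached 0.93 for Gstm4 and 0.85 for Gstm3 on the log2 scale, while it was 0.06 for Gsta3 and 0.12 for Gstm6. Cyp3a-/- 1 was the highest liver for 5 members (27.6% of all genes), namely Gsta2, Gsta4, Gstm1, Gstm3 and Gstm4, and Cyp3a-/- 2 for the other 4 (26.5% of all genes). Class medians moved with single livers. The mu median log2 fold change of 0.55 became 0.89 without wild type 2, 0.34 without Cyp3a-/- 1 and 0.24 without wild type 1. The alpha median of 0.40 was 0.26 without wild type 1, 0.67 without wild type 2 and 0.20 without Cyp3a-/- 1.

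Spots of one probe repeated within an array gave the error of measurement within an array for 2 members. The Gsta4 probe and one Gstm7 probe were each printed as 10 spots. The SD of Gsta4 spots within an array was 0.03 to 0.06 on the log2 scale, against a gap of 0.54 between the wild type livers and 0.39 between the Cyp3a-/- livers. Spots of that probe lay between 743 and 855 units of processed intensity on the wild type 1 array and between 1241 and 1417 on the wild type 2 array. For Gstm7 the SD within an array was 0.03 to 0.06, from 8 to 10 spots after outliers were removed, and the mean of wild type 2 lay 0.12 below that of wild type 1. Gsta4 spots of the wild type livers thus did not overlap, whereas Gstm7 spots did, at 238 to 266 units on the wild type 1 array and 246 to 273 on the wild type 2 array before scaling. These spots measure the array alone and hold no error of labelling, RNA extraction or animal.

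**Figure D4:**
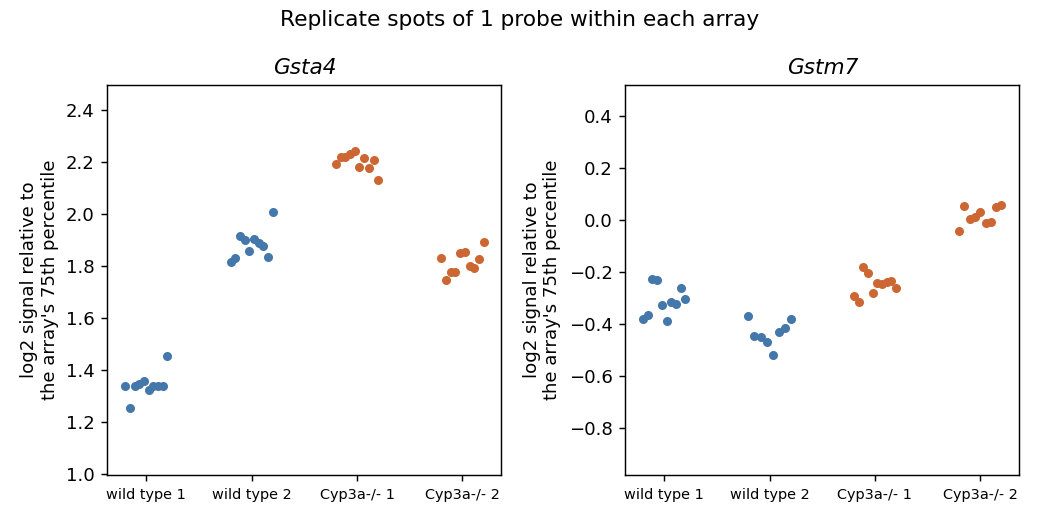
Each point is 1 spot of the repeated Gsta4 probe (left) or Gstm7 probe (right), as log2 signal relative to the 75th percentile of its array (y axis), by liver (x axis; wild type blue, Cyp3a-/- orange). Gsta4 spots of wild type 1 lie below those of the other livers, while Gstm7 spots of the wild type livers overlap.

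Other genes of glutathione metabolism showed no call, and of the 115 genes tested in 7 related lists the 7 that passed were all on the list of other CAR and PXR targets. Of the other GST classes and Gstm5, 0 of 13 tested genes passed, with Gstp1 at -0.01 ± 0.17, Gstt1 at 0.23 ± 0.19 and the membrane-bound Mgst1 at 0.30 ± 0.17 (log2 fold change, SE). Glutathione synthesis had 0 of 9 called, with the ligase subunits Gclc at -0.28 ± 0.27 and Gclm at 0.17 ± 0.30 and glutathione synthetase, Gss, at -0.26 ± 0.21. The redox enzymes had 0 of 16 called, with glutathione reductase, Gsr, at 0.31 ± 0.18 and Gpx1 at -0.07 ± 0.19. Export and further processing of conjugates had 0 of 17 called, with the bile-side pump Abcc2 at 0.12 ± 0.20 and the blood-side pump Abcc3 at 0.63 ± 0.21, while Ggt1 did not stand above background in any liver. The medians of these 4 lists were 0.17, 0.06, 0.17 and 0.00, beside 0.40 for the alpha class, 0.55 for the mu class and 0.01 for all genes. At an unadjusted p below 0.05, 5 genes of the 4 lists were higher and 2 lower, beside 4.60% and 5.42% of all genes. The higher genes were Gstt3 (0.97 ± 0.25), Cth (0.96 ± 0.22), Gpx7 (0.80 ± 0.29), Abcc3 and Chac2 (0.53 ± 0.17). The lower genes were Mgst3 (-0.60 ± 0.21) and Abcc4 (-0.55 ± 0.18). Apart from Abcc3 these were named after their values were seen, and none reached an adjusted p under 0.05 in limma.

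The receptors and factors known to control GST genes were not called either. Among 17 regulators 0 passed, with a median of 0.01. Only Cebpb (0.71 ± 0.20, named after its value was seen) and Nr1i3 had an unadjusted p below 0.05. Of all genes 4.60% were higher and 5.42% lower at that p. NRF2 itself, Nfe2l2, stood at 0.20 ± 0.23 and its inhibitor Keap1 at -0.47 ± 0.24. CAR, Nr1i3, stood at -0.59 ± 0.20 and PXR, Nr1i2, at 0.14 ± 0.30 (log2 fold change, SE). Of 24 other NRF2 targets 0 passed, with a median of -0.07. In this list G6pdx and Osgin1 were lower with an unadjusted p below 0.05 and 0 genes were higher. Nqo1, a standard readout of NRF2, stood at -0.42 ± 0.31. Of 26 other CAR and PXR targets 7 rose and 0 fell, against 0.178% and 0.0977% of all genes, with a median of 0.97. They were Cyp2b10 (4.33 ± 0.23, adjusted p = 0.0040), Cyp2b9, Cyp2c55, Akr1b7, Ces2a, Slco1a4 and Sult2a7. This list was chosen with earlier results of these data known, so its count beside all genes is no independent support. Leaving out either wild type liver left 0 of the 26 called. Over these 7 lists together 11 of 115 genes passed without Cyp3a-/- 2, against 7 with all livers. The fold changes of Gstm2 and Gstm3, 1.22 and 1.56, lay above that list's median, and those of the other 7 members below it.

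**Figure D5:**
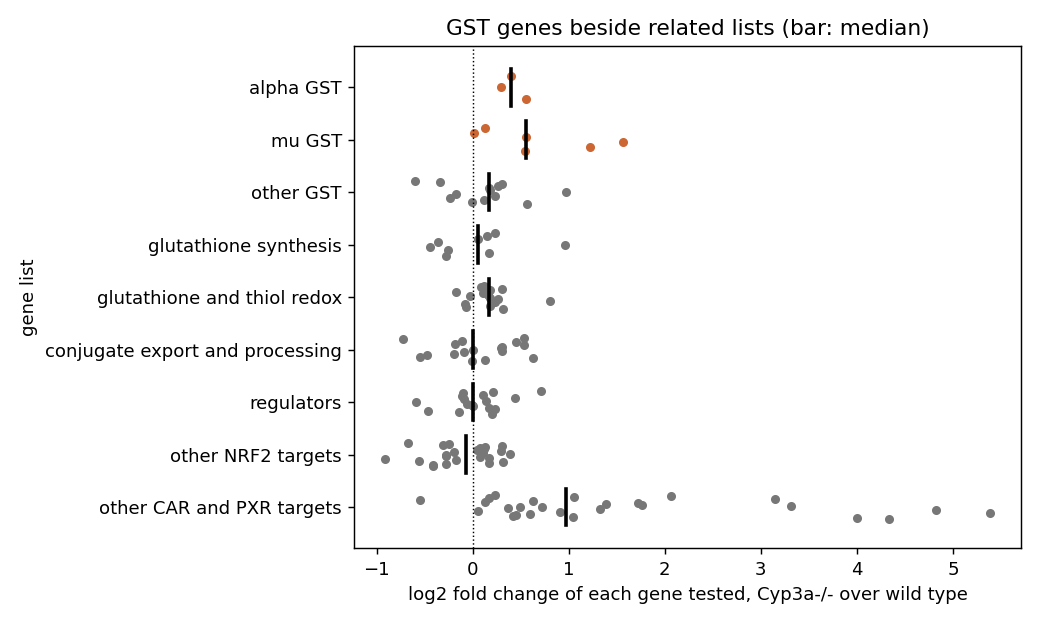
Log2 fold change of Cyp3a-/- over wild type (x axis) for each gene tested in the alpha and mu GST classes (orange) and in related lists (grey; y axis), with a bar at each list's median. Medians run from -0.07 for other NRF2 targets to 0.97 for other CAR and PXR targets, with 0.40 for alpha and 0.55 for mu GST genes.

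The tissue matched its label. All 9 hepatocyte markers with a probe were well above background on all 4 arrays, Alb among them, and 0 of the 9 passed between genotypes. Of 5 kidney markers 4 did not stand above background in any liver, and neither did Epcam of the bile ducts. Summed over its tested genes, in units of the array's 75th percentile, the pericentral hepatocyte list overlapped between genotypes (726 and 675 in wild type, 702 and 868 in Cyp3a-/- liver), with its marker Glul at 0.27 ± 0.22. The 2 adipose genes tested summed to 1.627 and 1.431 in wild type and 1.628 and 1.903 in Cyp3a-/- liver. The 1 kidney gene tested read 0.0602 and 0.0612 against 0.0881 and 0.0640, so both lists were higher in both Cyp3a-/- livers. The sums of 4 lists for other cell types were lower in both Cyp3a-/- livers than in both wild type livers. Sums of the remaining cell type lists overlapped between genotypes. The 4 erythroid genes tested summed to 68.3 and 80.4 in wild type and 34.4 and 57.7 in Cyp3a-/- liver. The 10 stellate cell genes summed to 81.0 and 72.7 against 61.7 and 71.3, and the 10 macrophage genes to 61.7 and 62.9 against 50.2 and 55.4. The 2 pancreas acinar genes tested, Cela1 and Amy2a5, summed to 2.99 and 3.42 against 2.27 and 0.522, with Cpa1, Prss1 and Pnlip not above background in any liver. No gene of these 4 lists passed, and their part in the GST values was not tested. In whole liver, fewer cells of a type and less RNA per cell cannot be told apart.

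Among the genes whose profile over the 4 livers lay nearest to that of Gstm2 were Zc3h12a, Noxred1, Bpifb2 and Myc. Their signals were dim, from -5.72 to -4.03 for Zc3h12a and from -3.31 to -1.58 for Myc, beside 3.67 to 5.26 for Gstm2. The measure was the root mean square difference of log2 values centred on the mean of the 4 livers, and it ran from 0.09 for Zc3h12a to 0.12 for Myc. Among the members themselves the nearest pair was Gsta4 and Gstm1, at 0.08. With 4 livers many genes can share a profile, so these names describe the livers and no more.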

How the data were processed

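Livers of 2 wild type and 2 Cyp3a-/- mice were measured, 1 array each. The authors deposited scanner files, read with Agilent Feature Extraction (version 11.5.1.1 in the submitters' processing notes). Per the file headers, their processed intensity had background subtracted and no scaling across arrays. Flags of 0 or 1 mark spots above background, saturated or deviating. The deposited table holds log2 values. Its columns correlated at 1.00 with scanner values scaled to the 75th percentile and centred per probe. By itself this does not settle which quantile was used for scaling. The column medians were 0.06, -0.07, -0.02 and 0.02.

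Control spots and 113 to 148 outlier spots per array were left out. Spots of one probe were averaged on the log2 scale, relative to the array's 75th percentile. Probes were kept where, in 1 genotype or in both, each liver was well above background (21505), named through RefSeq accessions of GRCm38.p6 (28025 of 39429 probes), and the brightest kept probe stood for a gene. The genotypes' difference was tested with limma (version 3.58.1, R 4.3.3; 2-sided, Benjamini-Hochberg over 17403 features, adjusted p threshold 0.05). The number of arrays limits the precision. The script was tested on simulated data. Named genes were all members, fixed genes of each list and any list gene past the threshold. Members and lists were chosen with earlier results of these data known. The probe ratio, the fit over all probes, the second median scaling and the crossed block were added after seeing the data. A few genes that these rules name are not reported here.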

Additional observations from a re-analysis of the deposited data

How the results depend on the processing

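Of 135 member values (9 genes, 15 alternatives), 129 kept their direction and their side of the threshold. Gstm6 turned sign in 4: -0.12 with quantile normalization, -0.075 as a mean of its probes, -0.05 without wild type 1 and -0.22 without Cyp3a-/- 2. Median scaling over all probes called 2 members, 659 of all genes and 15 genes of the related lists, against 0, 48 and 7; there the prior degrees of freedom were infinite. Without a filter on dim probes 13 genes and 1 list gene were called, and with all 4 arrays above background 9 and 4. The filter on all 4 arrays leaves out genes not detected in 1 genotype, such as Cyp3a11, which was called lower in the main fit. Why the counts fell was not tested further. Leaving out 1 liver gave 7 to 506 calls over all genes, 0 to 11 list genes, 0 members (0 to 0), an alpha median of 0.20 to 0.67 and a mu median of 0.24 to 0.89. Deviations of same-numbered livers correlated at -0.10, which with 2 livers per genotype cannot show whether the numbers pair the livers. With the replicate number as a block 58 genes and 0 members were called, and the crossed pairing called 56 genes and 0 members, and in the fit over all probes 79 probes, the larger Gstm3 probe among them. In the fit over all probes the larger Gstm3 probe (3.26) passed with the block (limma adjusted p = 0.036). That setting called 78 of 21505 probes, against 58 in the main fit. Among other settings the probe did not pass with quantile normalization (adjusted p = 0.117), without the filter on dim probes (0.278) or with slide as a random block (0.161). Its value was 2.74 without wild type 1, 3.78 without wild type 2, 2.95 without Cyp3a-/- 1 and 3.57 without Cyp3a-/- 2. The correlation within a slide was set at 0.35 from the ratio of squared differences in the wild type pair, which shares a slide, to those in the Cyp3a-/- pair. A slide effect and a difference in spread between genotypes cannot be told apart in it. All 18 member probes were well above background on all 4 arrays, and the part of background in their fold changes was not tested.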
